A study of Rattus norvegicus with 4 samples.

Results

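The constitutive proteasome subunits were taken as the rat genes named Psma, Psmb, Psmc or Psmd plus a number, leaving out the immune subunits Psmb8, Psmb9 and Psmb10. On the array 35 such genes had a probe named through its RefSeq accession, of 16581 named genes in all, and 37 of 21109 named probes belonged to them. The RNA came from NR8383 cells, a rat line of alveolar macrophages first obtained by washing out a lung, after 20 passages. All 4 cultures described here had been exposed to 2 µg/mL of the iron oxide Fe2O3, particle NRCWE018, for 4 h. Each was hybridised to 1 single-colour array. Spread between cultures, as given below, therefore includes differences between arrays, and the design cannot tell them apart. The control cultures of the study were not analysed here, so no value below is an effect of the particles. NR8383 is 1 immortal line, and the labels call the 4 cultures biological replicates without naming what sets them apart, so p-values measure the spread between these samples.

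The proteasome is the protease that degrades most ubiquitin-tagged proteins in the cytosol and nucleus. Its barrel-shaped core particle is built of outer rings of alpha subunits (Psma genes), which gate the entrance, and inner rings of beta subunits (Psmb genes), some of which cut peptide bonds. The regulatory particle caps the core. Its base holds a ring of ATPases (Psmc genes) that unfold the substrate, and its non-ATPase subunits (Psmd genes) bind ubiquitin chains and remove them. Macrophages also carry immune beta subunits, which replace the catalytic constitutive ones in immunoproteasomes and are raised by interferon gamma. When proteasome activity falls, the transcription factor NRF1, encoded by Nfe2l1, raises the subunit genes together through antioxidant response elements in their promoters.

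The 75th percentile of the processed signal lay between 756.5 and 1082 on the 4 arrays, lowest on replicate 4, and no spot was saturated. The array of replicate 4 also had a dim area, described with the genes whose spots lie in or near it, and SDs are given with and without that array where this changes an order. Of the macrophage markers Cd68, Csf1r, Lyz2, Spi1, Ptprc, Cd14, Itgam and Tyrobp, 8 of 8 were well above background on all 4 arrays. Of 12 measured markers of lung epithelium, T and B cells, endothelium and fibroblasts, 12 were above it on none. Precision is limited by there being 4 arrays.

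Of the 35 subunit genes, 34 were well above background on all 4 arrays, against 50.5% of all named genes. These comprised 7 of 8 alpha, 7 of 7 beta, 6 of 6 ATPase and 14 of 14 non-ATPase genes. The exception was Psma8, the alternative alpha subunit known from spermatogenic cells, whose processed signal was 26.7, 35.5, 28.6 and 25.2 on replicates 1 to 4. It carried the mark for being well above background on replicates 2 and 3 and not on replicates 1 and 4. Its log2 level, meaning log2 of the signal minus that of the array's 75th percentile, was -5.33, -4.80, -5.24 and -4.91. Levels of different probes are not set against each other below, since probes bind their targets with different strength.

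The 3 catalytic subunit genes each gave nearly the same level in every culture, with the exception of Psmb5 on replicate 4. Psmb6, the caspase-like subunit, had log2 levels of 4.98, 5.08, 5.01 and 4.96 on replicates 1 to 4. Psmb7, the trypsin-like subunit, had 2.67, 2.74, 2.62 and 2.51. Neither gene had an array that stood apart. Psmb5, the chymotrypsin-like subunit and the main target of the drug bortezomib, had 5.01, 5.06, 4.98 and 4.59. Replicate 4 lay apart below the others, and the SD of 0.22 was 0.039 without it. An array was taken to lie apart where its gap to the nearest other, as a share of the gene's range, exceeded Dixon's critical value for 4 values. Of the 34 subunit genes above background on all arrays this held in 4 (11.8%), Psmb5, Psmc6, Psmd3 and Psmd7, against 5.87% of all such genes. None of the 3 genes passed the test of spread described below, with unadjusted limma p of 0.149 for Psmb5, 0.932 for Psmb6 and 0.759 for Psmb7. A second Psmb6 probe gave 4.78, 4.79, 4.77 and 4.74, an SD of 0.021 beside 0.054 for the first.

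The promoters of the catalytic genes are shown because they differ in the motifs linked to coordinated proteasome expression. Each is 250 bases before to 50 after the gene start, from RefSeq's GRCr8 build, read 5′ to 3′ on the gene's strand. Capitals mark the core of the antioxidant response element, TGACNNNGC, and the CCAAT box, each on either strand. The antioxidant core lies in the Psmb5 and Psmb6 promoters and not in that of Psmb7, which holds CCAAT boxes. Psmb5 lies at chr15:32047330-32047629 on the minus strand, Psmb6 at chr10:55737638-55737937 on the plus strand and Psmb7 at chr3:42827421-42827720 on the minus strand.
Psmb5: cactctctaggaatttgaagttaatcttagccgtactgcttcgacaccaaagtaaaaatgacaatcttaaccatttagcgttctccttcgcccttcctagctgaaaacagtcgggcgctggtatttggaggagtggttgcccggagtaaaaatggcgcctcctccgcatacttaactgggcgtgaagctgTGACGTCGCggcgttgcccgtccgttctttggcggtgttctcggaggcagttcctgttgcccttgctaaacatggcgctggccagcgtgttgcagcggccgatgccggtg
Psmb6: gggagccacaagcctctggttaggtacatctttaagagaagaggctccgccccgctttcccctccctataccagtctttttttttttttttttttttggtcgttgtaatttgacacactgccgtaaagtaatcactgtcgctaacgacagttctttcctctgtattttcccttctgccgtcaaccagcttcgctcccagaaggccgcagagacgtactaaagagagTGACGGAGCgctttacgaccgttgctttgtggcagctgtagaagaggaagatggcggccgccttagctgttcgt
Psmb7: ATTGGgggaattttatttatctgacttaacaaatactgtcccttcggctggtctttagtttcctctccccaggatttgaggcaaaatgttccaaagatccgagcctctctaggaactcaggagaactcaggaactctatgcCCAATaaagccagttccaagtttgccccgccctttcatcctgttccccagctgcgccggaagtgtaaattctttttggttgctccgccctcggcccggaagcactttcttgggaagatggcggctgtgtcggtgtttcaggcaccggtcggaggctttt

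Among the alpha subunit genes, Psma7 had the smallest SD between the cultures and Psma4 the largest, an order that changed with the processing. Psma7 had log2 levels of 3.80, 3.85, 3.85 and 3.73, an SD of 0.057 over n = 4 arrays. Psma4 had 2.18, 2.42, 2.52 and 2.73, an SD of 0.23 and a 1.46-fold span, lowest on replicate 1 and highest on replicate 4. Averaged over the 2 spots of Psma4, the spots around it had median deviations of -0.099 on replicate 1 and 0.18 on replicate 4. On replicate 4 these were 0.30 at 1 spot and 0.06 at the other. The first spot read 2.08, 2.41, 2.45 and 2.79 on replicates 1 to 4, and the other 2.28, 2.43, 2.59 and 2.66. The part of the surrounding spots in the spread of Psma4 was not tested. With the neighbours subtracted, the SD was 0.14 for Psma4 and 0.12 for Psma7, and Psma2 was lowest at 0.087 and Psma3 highest at 0.18. Without replicate 4, Psma7 was lowest at 0.031 and Psma3 highest at 0.23. The other alpha genes above background on all 4 arrays, Psma1, Psma2, Psma3, Psma5 and Psma6, spanned between 1.16-fold (Psma5) and 1.35-fold (Psma3). The 4 beta genes with structural roles, Psmb1, Psmb2, Psmb3 and Psmb4, spanned 1.12-fold to 1.21-fold. The beta ring had the lowest median SD of the 4 classes, 0.085, against 0.12 for the alpha ring, 0.11 for the ATPases and 0.13 for the non-ATPase genes. The order turned when the median deviation of neighbouring spots was subtracted, as described further on, with 0.145 for the beta ring, 0.12 for the alpha ring, 0.084 for the ATPases and 0.13 for the non-ATPase genes. Without replicate 4 the medians were 0.060, 0.14, 0.10 and 0.11. The class medians were not tested against each other.

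The ATPase genes held both the smallest and the largest SD of the 34 genes. Psmc5 had log2 levels of 5.74, 5.79, 5.74 and 5.73, an SD of 0.027 and a 1.04-fold span. Psmc3 had 3.98, 3.86, 3.66 and 2.60, an SD of 0.63 and a 2.60-fold span, and its level on replicate 4 lay below those of the other cultures. Psmc6 was low on replicate 1 alone, at -1.72 against -1.09, -1.01 and -1.04 on replicates 2 to 4. Psmc6 had the largest SD without replicate 4, at 0.39, and with the neighbours subtracted, at 0.29. Psmc5 kept the smallest of the class without replicate 4, at 0.029, and with the neighbours subtracted Psmc2 had it, at 0.063. Psmc1, Psmc2 and Psmc4 spanned 1.14-fold, 1.26-fold and 1.11-fold. Psmc1 had 2 probes, with SDs of 0.085 and 0.066. The first was highest on replicate 1 and the second on replicate 4, so the small differences between cultures were not shared by both probes.

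In the regulatory particle, the large base scaffolds Psmd1 and Psmd2 spanned 1.26-fold and 1.28-fold, and the ubiquitin receptor Psmd4 spanned 1.31-fold. Psmd14, the deubiquitinase of the lid, spanned 1.22-fold, with higher log2 levels on replicates 2 and 3, 1.35 and 1.38, than on replicates 1 and 4. Of the structural lid genes, Psmd6, Psmd7, Psmd8, Psmd11 and Psmd13 spanned 1.11-fold to 1.24-fold. Psmd7 lay slightly lower on replicate 2, at 1.15 against 1.33, 1.35 and 1.34 on the others. The lid genes Psmd3 and Psmd12 were low on replicate 4. Psmd3 had 2.13, 2.21, 2.09 and 1.41, and Psmd12 had 3.63, 3.46, 3.53 and 2.82. Psmd5, Psmd9 and Psmd10 encode chaperones that assemble the base and leave the finished particle. Psmd5 had the smallest SD of the non-ATPase genes, 0.046, though 0.068 against 0.067 for Psmd1 with the neighbours subtracted, with levels of -0.06, -0.15, -0.08 and -0.04, and Psmd9 and Psmd10 spanned 1.31-fold and 1.16-fold.

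**Figure D1:**
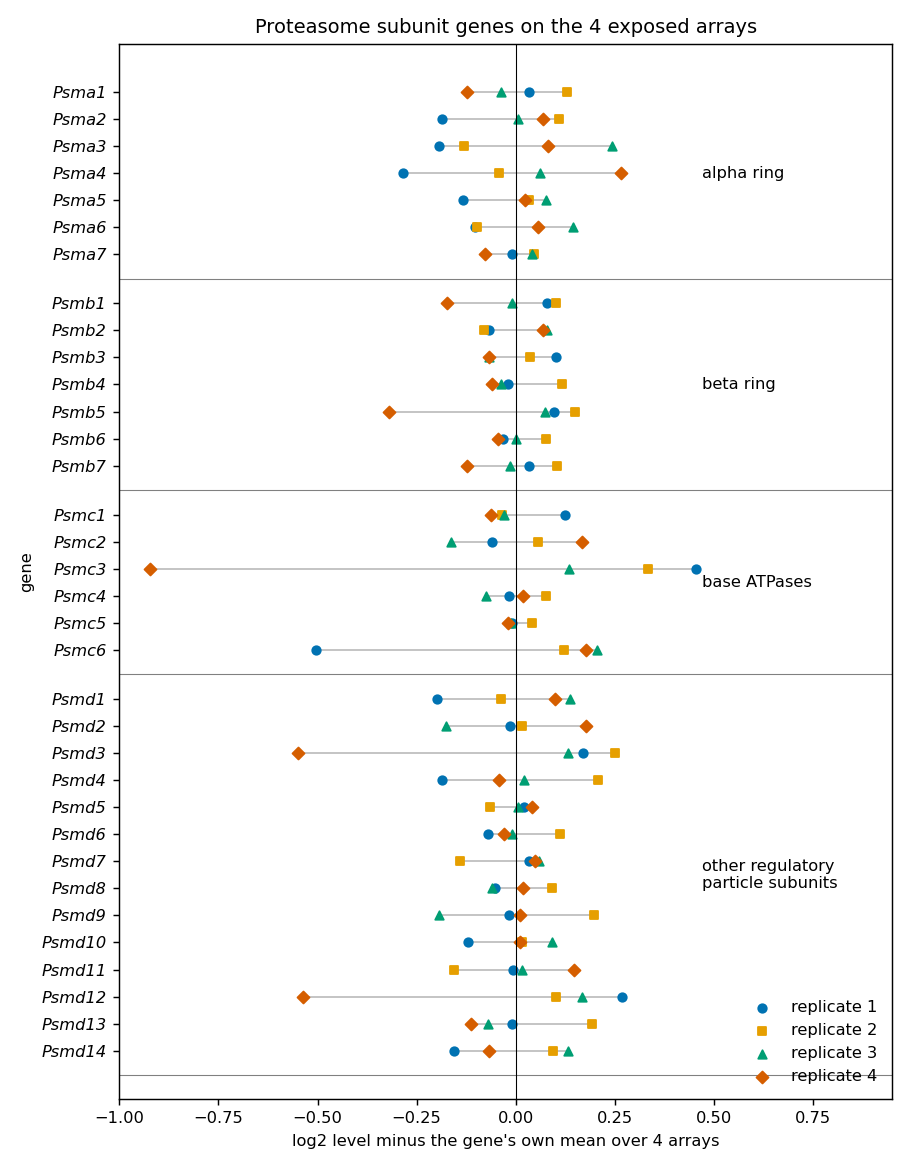
Log2 level of each subunit gene minus its own mean over the 4 exposed arrays (x axis), for the 34 genes above background on all 4 arrays (rows, by class); symbols mark replicates and grey lines the range. Most genes lie close to 0 on every array, and Psmc3, Psmd3 and Psmd12 lie between -0.92 and -0.54 on replicate 4.

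Over the 34 genes, the median SD between cultures was 0.12 on the log2 scale and the median span between highest and lowest culture 1.20-fold. For the 8376 named genes above background on all 4 arrays these were 0.18 and 1.32-fold. Spread falls with level on this array, and the SD fitted for genes of like level had a median of 0.15 over the subunit genes and 0.19 over all genes. The SD lay below that fitted value in 25 of the 34 subunit genes (73.5%), against 56.4% of all tested genes. For 29 of the 34 genes the span was under 0.5 on the log2 scale. The median span of all 8376 genes, 0.40, was also under that limit.

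Excess spread was tested with limma, setting each gene's variance over the 4 arrays against the variance fitted for its level, over all 8376 genes. After Benjamini-Hochberg adjustment at 0.05, 0 of 34 subunit genes passed, against 0.191% of all tested genes. At an unadjusted p under 0.05, 3 subunit genes did, or 8.82%, against 5.75% of all. These were Psmc3 (limma p 0.000318, adjusted 0.133), Psmd12 (p 0.0143, adjusted 0.542) and Psmd3 (p 0.0216, adjusted 0.646). Psmc3 passed after adjustment under 2 other settings. Its adjusted limma p was 0.0378 with normexp background correction and quantile normalization, and 0.0363 when spots marked as outliers were kept. Without replicate 4, the unadjusted limma p was 0.301 for Psmc3, 0.723 for Psmd12 and 0.865 for Psmd3. Each of these genes lay farthest from its own mean on replicate 4, so a smaller spread without that array was bound to follow. In the same setting 1 of 34 subunit genes was under 0.05, against 437 of all 8644 genes tested there. That gene was Psmc6, low on replicate 1, with an unadjusted limma p of 0.0487, beside 0.101 over the 4 arrays.

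**Figure D2:**
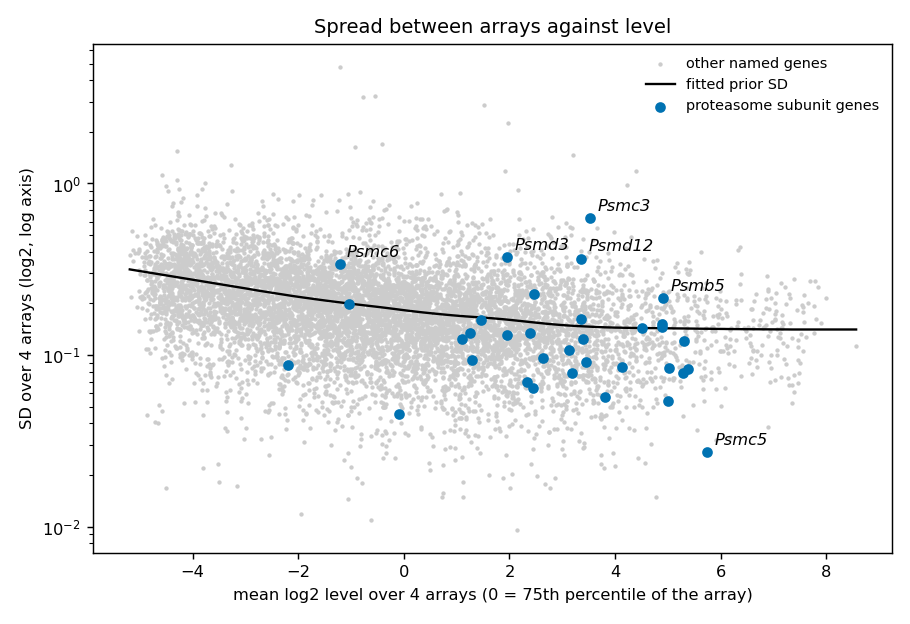
SD over the 4 exposed arrays (y axis, log2 units on a log axis) against mean log2 level (x axis) for all 8376 genes above background on all arrays (grey), with the SD fitted for each level (line) and the subunit genes (blue). Most subunit genes lie below the line, Psmc3 lies highest of them at 0.63 and Psmc5 lowest at 0.027.

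The spots of Psmc3, Psmd12 and Psmd3 lie in or near an area of replicate 4's array where other spots were low too. Whether position lowered the values of these genes was not tested. Each array has 384 rows and 164 columns of spots. On replicate 4, spots in an area near the middle of the array were dimmer than on the other arrays. Between rows 169 and 240 and columns 69 and 96, 36 blocks of 8 rows by 4 columns had a median deviation under -0.5 from the mean of the same spots over the 4 arrays, and the lowest block was at -0.97. The lowest block was at -0.28, -0.25 and -0.30 on replicates 1, 2 and 3. For each gene, the neighbouring spots were taken as the other spots within 5 rows and 3 columns that were above background on all arrays. On replicate 4 the neighbours of Psmc3 had a median deviation of -0.68, those of Psmd12 -0.35 and those of Psmd3 -0.34, while the genes themselves deviated by -0.92, -0.54 and -0.55. The spot of Psmc3 lies within those rows and columns, and those of Psmd12 and Psmd3 lie just outside them. The neighbours of Psmb5, whose spot lies farther out, had -0.08, and Psmb5 deviated by -0.32. The neighbours were under -0.25, a limit set after seeing the data, for Psmc3, Psmd12 and Psmd3 alone among the 34 subunit genes (8.82%) on replicate 4, against 3.5% of all tested genes. On each of replicates 1 to 3, 0 subunit genes had such neighbours, and so did 0 of the 8366 tested genes with at least 10 neighbouring spots.

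**Figure D3:**
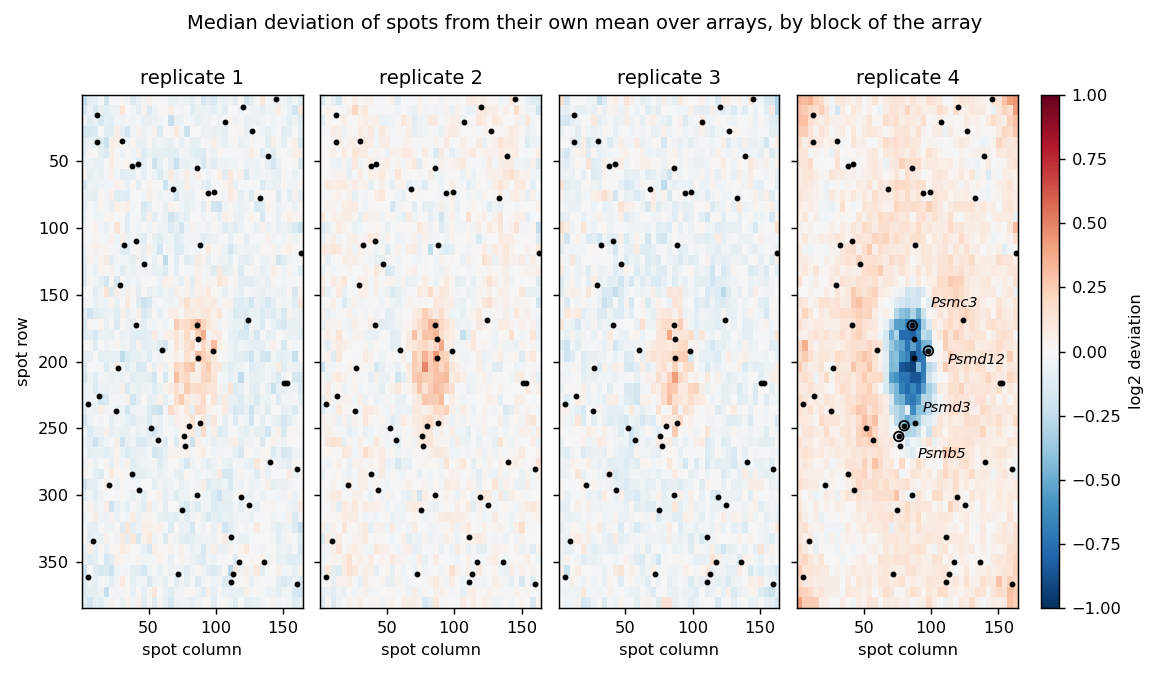
Position map of the 4 exposed arrays: colour gives the median log2 deviation of spots from their own mean over the arrays in blocks of 8 rows by 4 columns (axes, spot row and column), and black dots are spots of subunit genes. The dim area on replicate 4 reaches -0.97, and the circled spots of Psmc3, Psmd12 and Psmd3 lie in it or at its edge, while that of Psmb5, also circled, lies farther out.

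Psma7 and Psmb4 have repeat spots of 1 probe at several positions. Psma7 was spotted 10 times on each array, and its only spot with neighbours under -0.25 read 2.94 on replicate 4, where its other spots read 3.62 to 3.96. On replicates 1 to 3 that spot read 4.02, 4.13 and 4.06. It carried an outlier mark on all 4 arrays and was left out of the Psma7 mean. Psmb4 was also spotted 10 times, and its spots with such neighbours read 4.85 and 5.00 on replicate 4, where its other spots read 5.11 to 5.40. The spot at 4.85 also carried an outlier mark on all 4 arrays and was left out of the mean. The levels of these spots averaged 5.40, 5.61 and 5.42 on replicates 1 to 3. Of the 35 subunit genes, 28 were spotted once, Psmc3, Psmd12 and Psmd3 among them. The spots of Psmc3, Psmd12 and Psmd3 carried no outlier mark, and their values entered as measured.

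The median deviation of the neighbours was then subtracted from each spot, an alternative chosen after seeing the data. The SD over the 4 arrays was then 0.18 for Psmc3, 0.16 for Psmd12 and 0.15 for Psmd3, with unadjusted limma p of 0.211, 0.303 and 0.421. All 34 subunit genes then lay between 0.061 and 0.29, the highest being Psmc6. The SD was under 0.2 in 33 of the 34 (97.1%) and 62.8% of all tested genes, against 28 (82.4%) and 58.5% before. The SD became larger in 17 of the 34 genes and in 41.8% of all tested genes, for example 0.150 against 0.083 for Psmb3, 0.12 against 0.057 for Psma7 and 0.067 against 0.027 for Psmc5. The median SD was 0.126 for the subunit genes and 0.168 for all tested genes, against 0.122 and 0.178 before. Over the 34 genes, the deviation on replicate 4 and that of the neighbours had a Pearson's r of 0.935 and a Spearman's rho of 0.71. Without the 3 genes with neighbours under -0.25, r was 0.69 and rho 0.618 over 31 genes. On replicates 1, 2 and 3, over the 34 genes, r was 0.691, 0.557 and 0.36, and rho was 0.45, 0.41 and 0.17. Deviations are taken from a gene's own mean, so a low value on replicate 4 raises those on the other arrays. The correlations on different arrays are therefore not independent. These correlations describe genes measured on the same array and have no p.

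**Figure D4:**
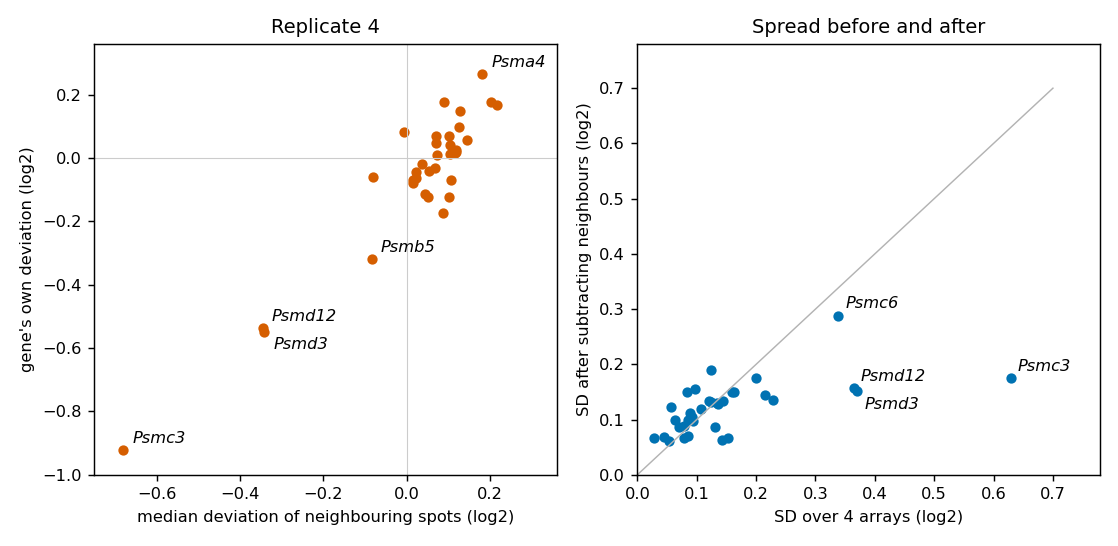
Left, each subunit gene's deviation on replicate 4 (y axis, log2) against the median deviation of its neighbouring spots (x axis, log2); right, SD over the 4 exposed arrays before (x axis) and after (y axis) subtracting the neighbours, with the line of equality. Psmc3, Psmd12 and Psmd3 lie lowest at left, and their SDs fall to between 0.15 and 0.18 at right.

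Relative to all tested genes, the subunit genes as a list lay slightly high on replicate 2 and low on replicate 4. The values below include Psmc3, Psmd3 and Psmd12. Across the 34 genes, the median of the deviations was -0.017, 0.076, 0.011 and -0.0047 on replicates 1 to 4, against -0.018, 0.0053, -0.030 and 0.069 for all 8376 genes. On replicate 2, 25 of 34 genes were above their own mean, against 51.2% of all, and on replicate 4, 17 of 34 were, against 68.0%. On replicates 1 and 3 the counts were 11 and 20 of 34, against 45.7% and 43.5%. Replicate 4 was the lowest array for 14 of the 34 genes, or 41.2%, against 15.4% of all tested genes. By class these were 6 of 7 beta, 2 of 7 alpha, 3 of 6 ATPase and 3 of 14 non-ATPase genes. The beta count includes Psmb4, whose mean level was 5.23 on replicate 4 and 5.25 on replicate 3. That mean keeps a spot near the dim area, which read 5.00 on replicate 4 and 5.39 on replicate 3. The neighbours of that spot had a median deviation of -0.35 on replicate 4. Without that spot, the mean of the other unmarked Psmb4 spots was lower on replicate 3 than on replicate 4. Psmb4 thus counts as lowest on replicate 4 only with that spot kept. For Psmb5, Psmc3, Psmd3 and Psmd12 the gap to the next lowest array exceeded 0.3, and for the other 10 genes it was at most 0.16. The difference from all tested genes was 0.071 on replicate 2 and -0.074 on replicate 4, beside a median SD of 0.12 for single subunit genes. Without replicate 4, it was -0.023, 0.021 and 0.0074 on replicates 1 to 3, so its size on replicates 2 and 3 rested on that array.

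The difference between the subunit genes and all tested genes kept its sign under every processing with 4 arrays that was tried for replicates 2, 3 and 4. It lay between -0.089 and -0.052 on replicate 4, between 0.055 and 0.082 on replicate 2, and between 0.038 and 0.071 on replicate 3. On replicate 1 it lay between -0.0057 and 0.013. The subunit median itself lay between -0.018 and 0.044 on replicate 1, where its sign turned with the scaling. On replicate 4 it was negative under each scaling tried, lowest at -0.073 with quantile normalization. It was 0.0107 there with the mean over a gene's probes and 0.0105 with each of the wider background filters. With the neighbours subtracted, 4 of 34 subunit genes were above their own mean on replicate 4, against 47.1% of all tested genes.

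**Figure D5:**
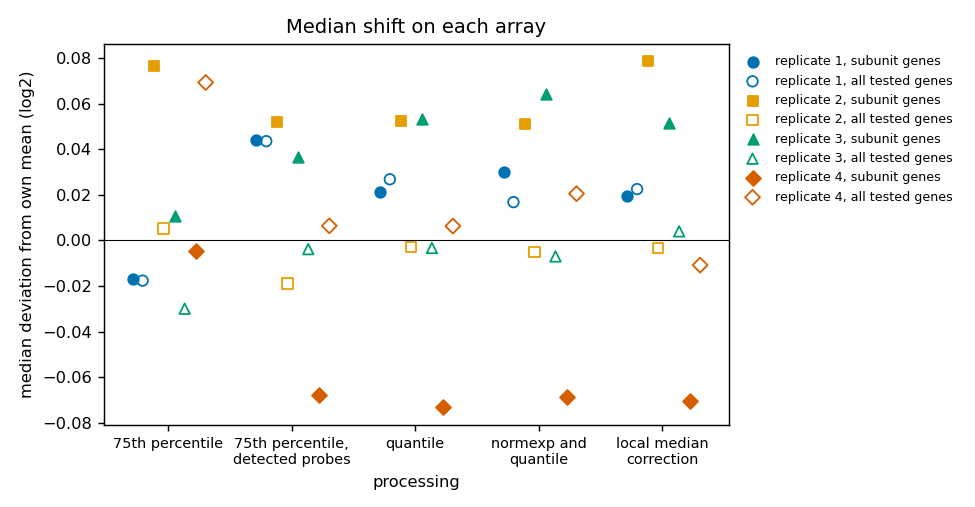
Median deviation from the own mean (y axis, log2) on each of the 4 exposed arrays (symbols) for the subunit genes (filled) and all tested genes (open), under 5 ways of processing (x axis). On replicate 4 the subunit genes lie below all tested genes under each, at -0.0047 against 0.069 with the 75th percentile and at -0.070 against -0.011 with local median correction.

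Repeat spots within an array set the precision of single values. For the 7 subunit genes spotted more than once, the SD among repeat spots of 1 array averaged between 0.055 (Psma1) and 0.13 (Psmb2). The SD between arrays was 0.0573 for Psma7 beside 0.0629 among its repeat spots, and 0.0788 beside 0.0764 for Psmb4, both spotted 10 times. For Psmb2 it was 0.0854 beside 0.134. It was 1.97, 1.6 and 1.46 times the spread of repeat spots in Psma1, Psma5 and Psmb3, and 2.59 times in Psma4. The SD among repeat spots is that of single spots, with outlier-marked ones left out. The SD between arrays is that of means over a gene's spots. These are unlike measures, so similar values do not show that arrays differed no more than repeat spots.

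The promoter table held 31 of the 35 subunit genes, Psma7, Psmd6, Psmd12 and Psmd14 being the others. The antioxidant core TGACNNNGC, searched on both strands, was in 7 of the 31 (22.6%), against 12.1% of all 33469 promoters of the table and 14.8% of the 7004 of genes above background on all arrays. CCAAT or its reverse ATTGG was in 16 (51.6%), against 37.5% and 39.2%. Psma3, Psmb2 and Psmd9 held both and 11 held neither. In Psmb2 the CCAAT box and the antioxidant core overlap by 1 base. The median G and C content of the subunit promoters was 56.0%, against 51.7% in all promoters and 60.3% in those of the genes above background. A match describes letters in the window and does not show binding.

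The antioxidant cores are shown with up to 10 bases on either side, turned so that the core reads 5′ to 3′ in capitals. In each of the 7 genes a core lies within 77 bases of the gene start, and Psmd1 and Psmd9 hold a second one farther upstream, 165 and 124 bases before it.
Psma3: ctcatggtgcTGACCCGGCaggccacaga
Psmb2: cccgcgccaaTGACCGGGCggtcgcatat
Psmb5: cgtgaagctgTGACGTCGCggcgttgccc
Psmb6: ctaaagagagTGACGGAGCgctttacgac
Psmd1 near: gtgaggggacTGACTGAGCagcgcacccg
Psmd1 far: accagatctaTGACCTCGCgagaattata
Psmd3: ggccgcacgaTGACCGAGCagctgcaaac
Psmd9 near: gagtttccggTGACCTCGCcccacctcca
Psmd9 far: ggttttcagaTGACCCGGCagagctaagt

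Genes that work with the proteasome were nearly all above background too. Of 40 such genes listed, 33 had a named probe and 32 were above background on all 4 arrays, against 50.5% of all named genes. After adjustment 0 of the 32 passed the limma test of excess spread, against 0.191% of all tested genes. At an unadjusted p under 0.05, 1 of the 32 did, against 5.75% of all. The immune subunits Psmb8, Psmb9 and Psmb10, which replace Psmb5, Psmb6 and Psmb7, were above background on every array. Psmb8 had log2 levels of 4.82, 4.82, 4.76 and 4.71, Psmb9 3.59, 3.52, 3.44 and 3.52, and Psmb10 4.24, 4.53, 4.46 and 4.70. The immune subunits thus spread by SDs of 0.055, 0.060 and 0.19, and only Psmb10 was highest on replicate 4.

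All 5 genes of core activators and their inhibitor were above background. Psme1 and Psme2, which form the interferon-inducible cap, had SDs of 0.050 and 0.091, Psme3 0.10, the inhibitor Psmf1 0.16 and Psme4 0.37. Of the core assembly chaperones, the maturation factor Pomp had 5.70, 5.74, 5.68 and 5.61, and Psmg2 and Psmg4 had SDs of 0.084 and 0.083. Of the proteins that sit on the cap, the ubiquitin receptor Adrm1 and the deubiquitinase Usp14 had SDs of 0.19 and 0.20. Sem1, the smallest lid subunit, had 4.14, 4.66, 4.47 and 4.46, lowest on replicate 1. Ubb and Rps27a, which encode ubiquitin, were highest on replicate 4, at 8.05 and 7.60, against 7.68 to 7.79 and 7.12 to 7.37 on the other arrays. Uba1, the enzyme that activates ubiquitin, was also highest there, at 4.68 against 4.44 to 4.66. Neighbouring spots on replicate 4 had median deviations of 0.17 for Ubb, 0.15 for Rps27a and 0.11 for Uba1. Their part in these levels was not tested. Replicate 4 was the highest array for 36.3% of all tested genes.

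Among the factors that deliver substrates, Vcp, the ATPase that extracts tagged proteins, had log2 levels of 3.39, 3.56, 3.45 and 3.60. Its cofactor Ufd1 was low on replicate 4, at 0.07 against 1.14, 0.997 and 1.17 on replicates 1 to 3 (limma p 0.00373, adjusted 0.289), and its neighbouring spots had a median deviation of -0.74 there. Ddi2, the protease that activates NRF1 in human cells, was above background on 1 array and not tested. NRF2, encoded by Nfe2l2, had 1.67, 1.45, 1.84 and 1.63, and Ngly1, the enzyme that removes sugars from NRF1, had an SD of 0.14. Mafk, a small MAF partner of these factors, had -2.91, -2.99, -3.13 and -3.90, and its neighbouring spots had a median deviation of -0.41 on replicate 4. No probe was named Nfe2l1, Psmg1, Psmg3, Uchl5, Ecpas, Ube3c or Paaf1, so these genes are not described here.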

How the data were processed

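Per the labels' protocols, total RNA of the 4 exposed NR8383 cultures was labelled with Cy3 for 1-colour Agilent arrays. The deposited intensity values came from Agilent Feature Extraction, whose version the submitters' processing notes give as 11.0.1.1. Per the file headers they are background-subtracted and detrended within each array, with no scaling between arrays. How the authors scaled between arrays is not stated there.

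Control spots were left out, which left 58717 of 62976. Outlier-marked spots were left out unless all spots of a probe were marked. Log2 signal was set relative to the array's 75th percentile over unmarked spots, and repeat spots were averaged. A probe was above background where most of its spots were marked so. Accessions were matched without version to the RefSeq gene table of GRCr8, for names only. A gene took the probe above background on most arrays, then the brightest.

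The test of excess spread used R 4.3.3 and limma 3.58.1. It was an upper-tail F test of each gene's variance against a prior fitted robustly as a trend on level (prior degrees of freedom 9.16), adjusted by Benjamini-Hochberg over 8376 genes. On simulated data with those 8376 genes, it called 50 of 100 genes given 5 times the SD, 89 of 100 given 10 times, and 6 unchanged genes. Tables and figures used Python 3.11.15, pandas 2.3.3 and matplotlib 3.10.9.

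The members, gene lists and tests were chosen with earlier results of these data known. Named were the catalytic genes, those of largest and smallest SD in each class, those apart on 1 array, those with an unadjusted p under 0.05, those not above background on all arrays, and genes of the pathway lists. Psmd1, Psmd2, Psmd4 and Psmd14 are given with values for their roles. Promoters came from RefSeq. A planned comparison of proteins was not run, and some genes of the pathway lists are counted but not reported here by name.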

Additional observations from a re-analysis of the deposited data

Results flagged for a closer look

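In 66 sets of 4 values examined, 34 of subunit genes and 32 of pathway genes, 1 array stood apart in 6, where chance gives about 1 in 20. Among subunit genes these were 4 of 34, or 11.8%, against 5.87% of all tested genes. The gap to the nearest array as a share of the range was 0.838 for Psmb5 and 0.85 for Psmd3, both low on replicate 4. It was 0.883 for Psmc6, low on replicate 1, and 0.884 for Psmd7, low on replicate 2. In the pathway lists it was 0.874 for Psme3, high on replicate 4 at 0.85 against 0.63, 0.66 and 0.65, and 0.84 for Ufd1, low on replicate 4. Median deviations of neighbouring spots on the array concerned were -0.08 for Psmb5, -0.34 for Psmd3, -0.12 for Psmc6, -0.011 for Psmd7, 0.19 for Psme3 and -0.74 for Ufd1. Psmc3 fell short of this limit, with a share of 0.769.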

How the results depend on the processing

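Of the subunit genes, 34 or 35 were above background under all alternatives tried, and 34 with any 1 array left out. For excess spread, 0 subunit genes passed in the main setting and in 12 of 14 alternatives, and 1, Psmc3, passed with normexp background correction and quantile normalization and with outlier-marked spots kept. Over all genes the count was 16 in the main setting, 25 with outlier-marked spots kept, 10 when the prior was fitted without robustness, 5 when it was held constant, and 7 to 22 with 1 array left out, 7 of them without replicate 2. The cause was not tested. The median SD of the subunit genes lay between 0.093 and 0.13 over the alternatives, lowest without replicate 4. The unadjusted p of Psmd3 and Psmd12 was 0.086 and 0.0908 when the prior was held constant. No paired analysis was possible because all 4 samples belong to 1 group. Signal over background limits Psma8 alone among the subunit genes.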

Other observations

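The dim area of replicate 4 reached genes outside the proteasome as well. Of 8366 tested genes with at least 10 neighbouring spots, 293 (3.5%) had neighbours with a median deviation under -0.25 on that array. Of the 16 genes that passed the test of excess spread, 3 lay there, Cebpg, Nr2c2ap and Uckl1. They were chosen after seeing their values, and each was lowest on replicate 4. After the neighbours' median was subtracted, 19 genes passed, of which 13 were among the 16, and Cebpg, Nr2c2ap and Uckl1 were not among them.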
